A study of Mus musculus with 16 samples.

Results

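The genes described here encode the non-catalytic subunits of the sodium pump: the beta subunits Atp1b1, Atp1b2 and Atp1b3, and the FXYD subunits Fxyd2, Fxyd3, Fxyd4 and Fxyd5. They were chosen by symbol, and all 7 were present among the 55367 gene symbols of the 16 deposited count files. RNA-seq counts came from mIMCD3 cells, an immortalized mouse line derived from the inner medulla of the collecting duct system, with 8 groups of 2 libraries each. Wild-type (WT) cells were pretreated for 5 h with the vehicle DMSO or with 10 µM sulforaphane (SFN), an activator of the transcription factor Nrf2. They were then sampled under isosmotic conditions or after 600 mOsm hyperosmotic stress for 1 h or 6 h, which gave 6 groups. WT cells of each pretreatment had 1 isosmotic group, which served as the reference for both times. Without an isosmotic group for each time, hyperosmotic stress and time since pretreatment cannot be told apart. Nrf2-/- cells, made with lentiviral Cas9 and a guide RNA and selected with antibiotics, were all pretreated with SFN and were sampled under isosmotic conditions or after 1 h of stress. No DMSO-treated or 6 h Nrf2-/- libraries were analysed here, and whether this line is 1 clone or a pool is not given, so the loss of Nrf2 and other differences between the 2 lines cannot be told apart. The study's methods call the RNA-seq libraries of a group biological replicates, without saying how they were separated, and p-values measure the spread between these libraries.

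The sodium pump, or Na+/K+-ATPase, sits in the basolateral membrane of kidney tubule cells, where it moves sodium out of the cell and potassium in at the cost of ATP. Its beta subunit is a glycoprotein that the catalytic subunit needs to fold, to leave the endoplasmic reticulum and to stay at the membrane, and beta subunits of neighbouring cells also take part in cell adhesion. FXYD proteins are small single-span membrane proteins that associate with the pump and tune its affinity for sodium and potassium in a tissue-specific way. Cells of the renal medulla face high and changing salt concentrations, and the pump sets the sodium gradient on which uptake of many organic osmolytes depends.

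Atp1b1 and Atp1b3 were the 2 abundant genes of the set and both increased after 6 h of stress, so the 250 bases upstream of their annotated start sites (RefSeq, GRCm38.p6, which is mm10) are shown. RefSeq promoter windows were matched for 5 of the 7 genes. The Atp1b1 window is chr1:164458356-164458605 and the Atp1b3 window is chr9:96364432-96364681, both on the minus strand. The sequences are written 5′ to 3′ and capitals mark matches to either of 2 core motifs, TGGAAA, the core bound by NFAT-family factors including Nfat5, or TGACNNNGC, the core of the antioxidant response element bound by Nrf2.
Atp1b1: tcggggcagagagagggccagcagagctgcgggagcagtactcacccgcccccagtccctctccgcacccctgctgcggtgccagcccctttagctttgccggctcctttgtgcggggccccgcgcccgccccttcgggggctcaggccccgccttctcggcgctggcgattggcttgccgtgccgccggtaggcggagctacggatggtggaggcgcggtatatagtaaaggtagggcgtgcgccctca
Atp1b3: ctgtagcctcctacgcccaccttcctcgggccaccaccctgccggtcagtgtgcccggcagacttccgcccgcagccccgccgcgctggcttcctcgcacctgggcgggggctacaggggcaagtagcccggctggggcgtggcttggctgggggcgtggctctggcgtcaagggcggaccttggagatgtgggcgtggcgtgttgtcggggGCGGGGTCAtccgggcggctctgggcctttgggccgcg
Both windows were rich in G and C, at 70.4% for Atp1b1 and 73.6% for Atp1b3. Neither motif occurred on either strand of the Atp1b1 window. The Atp1b3 window held 1 match to TGACNNNGC, on the strand opposite to the gene and 38 bases before the start site. A second annotated Atp1b3 start, inside the gene, had 1 match to each motif in its own upstream window (chr9:96363716-96363965, minus strand). The window of Fxyd3 held neither motif. Nor did those of Fxyd4 and Fxyd5, but 188 and 219 of their 250 bases are annotated as UTR, so they lie mostly within transcripts. Across the 32851 RefSeq windows of 250 bases, 18.58% held TGGAAA and 10.16% held TGACNNNGC, so single matches of this kind are common and describe letters, not occupied sites.

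The libraries held 34484296 to 50774875 counts. Spread within pairs was widest for the Nrf2-/- libraries at 1 h of stress, with a biological coefficient of variation of 0.348 against 0.0393 to 0.128 in the other 7 groups. Nfe2l2, which encodes Nrf2, was measured at mean levels of 66.6 to 146.7 CPM (counts scaled by library size) in the WT groups and at 11.1 and 11.4 CPM in the Nrf2-/- groups, and Nqo1, a classical Nrf2 target, had 0 counts in both isosmotic Nrf2-/- libraries. Of 21 collecting duct markers, 16 reached a mean of 1 CPM, but the water channels Aqp2, Aqp3 and Aqp4 and the vasopressin receptor Avpr2, which define principal cells in the kidney, had at most 11, 30, 2 and 10 counts in any library. Summed collecting duct markers were 5436 to 5835 CPM in the 4 libraries at 6 h and 2588 to 4410 CPM in the other 12. The members did not all rise: at 6 h in DMSO cells Pax2 went from 119.3 to 1141 CPM and Krt8 from 1053 to 801.1 CPM. By the edgeR test used below, 10 of 18 tested were higher and 2 lower there, where 23.9% of all genes were higher. With SFN 12 were higher and 0 lower, where 24.7% of all genes were higher. Several marker lists of other cell types also stood highest at 6 h. Summed proximal tubule markers were 37.9 to 40.6 CPM at 6 h and 7.84 to 14.2 CPM elsewhere, endothelium markers 3.999 to 5.36 against 0.0477 to 0.878 CPM, intercalated cell markers 3.40 to 5.46 against 0.161 to 2.51 CPM, and stroma markers 5.14 to 7.47 against 1.38 to 5.08 CPM. Leukocyte markers (6.89 to 10.8 against 1.93 to 7.39 CPM) and thick limb and distal tubule markers (0.724 to 1.30 against 0 to 0.901 CPM) overlapped. Among defining markers, Umod and Atp6v0d2 had 0 counts in all libraries. The part of these lists in the results below was not tested. In bulk libraries such as these, fewer cells of a type and less RNA per cell cannot be told apart.

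Levels of the 7 genes under basal conditions spanned a wide range. Scaled for transcript length, WT DMSO isosmotic cells had 58.6 ± 4.66 CPM per kb of Atp1b3 and 54.8 ± 0.522 CPM per kb of Atp1b1 (mean ± SD, n = 2 here and below), and their libraries were adjacent without overlap, at 55.3 and 61.9 for Atp1b3 and 55.2 and 54.4 for Atp1b1. Fxyd5 followed with 4.03 ± 0.840 CPM per kb, well below the abundant beta subunits. Fxyd4 at 0.143 ± 0.107 CPM per kb and Atp1b2 at 0.090 ± 0.00475 CPM per kb came next, and their ranges overlapped. Fxyd2 and Fxyd3 had no counts, where 3 counts would correspond to a mean of 0.0689 CPM. Among the relatives of these genes, Atp1b4, Fxyd1, Fxyd6 and Fxyd7 had at most 10 counts in any library and were too low to test. Thus the basal transcripts measured were mainly Atp1b1, Atp1b3 and Fxyd5.

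**Figure D1:**
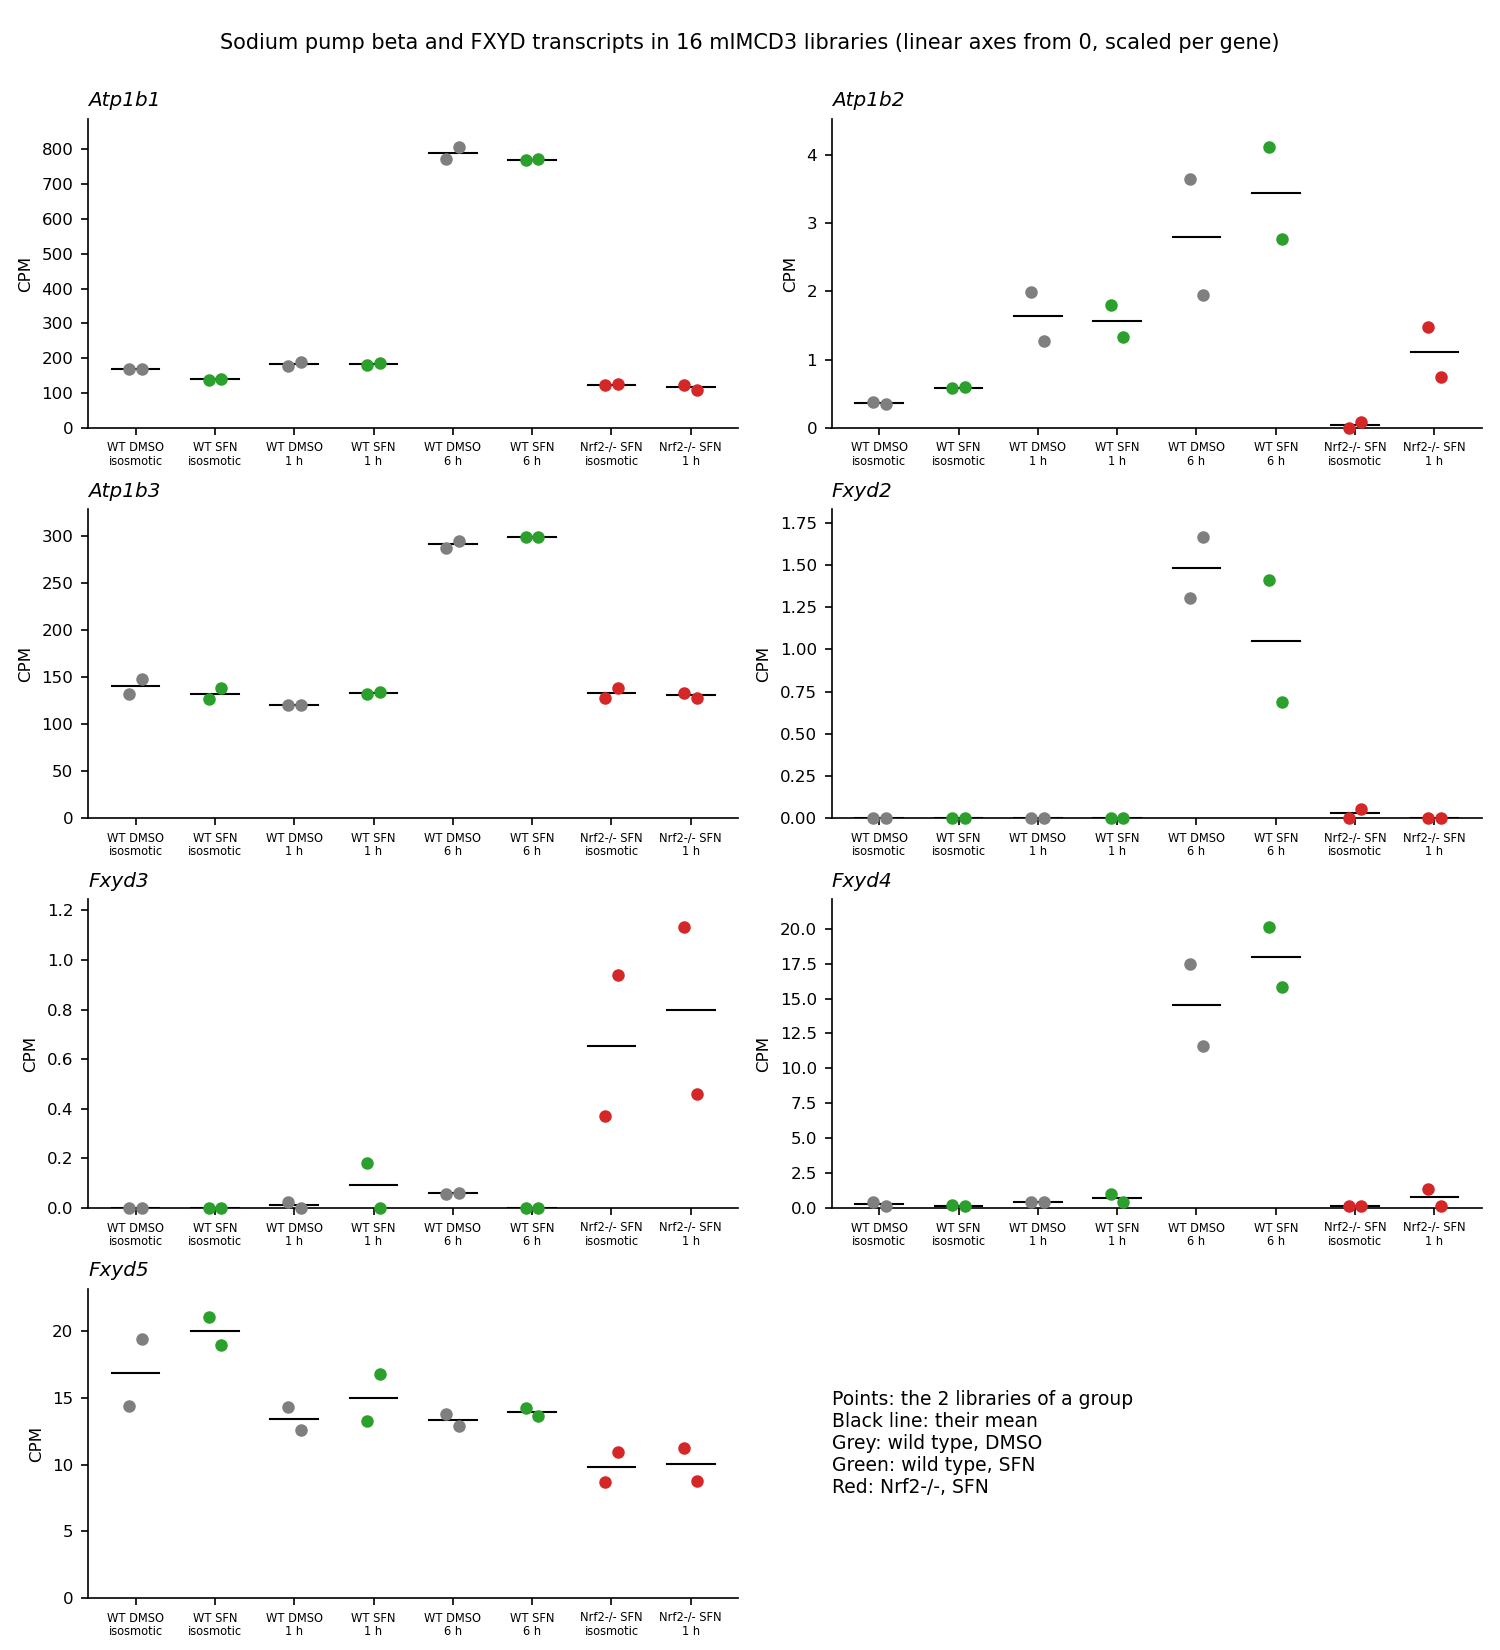
CPM (y axis, linear from 0 and scaled for each gene) of the 7 genes in the 8 groups (x axis). Points are the 2 libraries of a group and black lines their mean, with WT DMSO in grey, WT SFN in green and Nrf2-/- SFN in red. Atp1b1, Atp1b3, Fxyd2 and Fxyd4 stood highest in the 4 libraries at 6 h, Fxyd3 stood highest in the 4 Nrf2-/- libraries, and Fxyd5 was lowest there.

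To describe the pump subunits after prolonged hyperosmotic stress, WT DMSO libraries at 6 h were compared with the isosmotic ones, which also served as reference for 1 h. Transcripts of all 3 beta subunits and of Fxyd4 rose, from 2.08-fold for Atp1b3 to 51.9-fold for Fxyd4, and Fxyd2 went from no counts to a low level. Fxyd5 did not pass the test. Differential expression was called at an adjusted p below 0.05 in edgeR's quasi-likelihood test with Benjamini-Hochberg adjustment over 19509 genes. By this rule 4 of 6 genes were higher and 0 lower, whereas 45.9% of all genes tested were called in either direction and 23.9% were higher. The count leaves out Fxyd2, which was also called but passed the expression filter only through the libraries at 6 h. Against 1 h of stress, 3 of the same 6 genes were higher and 0 lower, with 42.4% of all genes called in either direction and 20.4% higher.

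Atp1b1 (chr1:164437109-164458355, minus strand, mm10) encodes the main beta subunit of kidney epithelia. Its level was 170.0 and 167.7 CPM in the isosmotic DMSO libraries, 179.0 and 188.9 CPM at 1 h, and 772.8 and 805.9 CPM at 6 h. The 6 h libraries lay far above all others without overlap. The increase was 4.67-fold over isosmotic cells (log2 fold change 2.23, SE 0.091, edgeR adjusted p = 4.69e-10), and 2219 called genes, itself included, rose at least as much. Against 1 h of stress the increase was 4.29-fold (log2 2.10, SE 0.091, adjusted p = 5.36e-10). In SFN-pretreated WT cells Atp1b1 measured 137.3 and 140.8 CPM under isosmotic conditions and 767.8 and 770.5 CPM at 6 h, a 5.53-fold increase (log2 2.47, SE 0.092, edgeR adjusted p = 1.25e-10). At 6 h the means with SFN and with DMSO, 769.2 and 789.4 CPM, differed by less than the SD of the DMSO pair, 23.4 CPM. Atp1b1 overlaps Nme7 on the opposite strand, and the strand setting used in counting is not given, so reads in the shared stretch cannot be assigned with certainty. Nme7 stood at 23.6 ± 0.458 CPM in isosmotic DMSO cells and at 13.8 ± 1.94 CPM at 6 h, and its part in the Atp1b1 counts was not tested.

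Atp1b3 (chr9:96332655-96364442, minus strand) encodes a widely expressed beta subunit. Isosmotic DMSO libraries had 132.1 and 147.8 CPM, and 6 h libraries had 287.2 and 294.7 CPM. Its increase of 2.08-fold (log2 1.06, SE 0.092, edgeR adjusted p = 5.5e-07) was smaller than that of Atp1b1, with 95% intervals of the log2 change of 0.86 to 1.25 and 2.03 to 2.42, respectively. With SFN it went from 126.2 and 138.2 CPM to 298.7 CPM in both libraries (log2 1.18, SE 0.092, edgeR adjusted p = 1.67e-07). No gene overlaps Atp1b3 in the annotation, and the nearest expressed gene upstream on its strand, Rnf7, stood at 60.1 ± 5.24 CPM in isosmotic and 47.9 ± 1.73 CPM in 6 h cells.

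Because the 2 abundant beta subunits rose unequally, the composition of the beta pool shifted. Per unit of length, Atp1b1 made up 49.9% and 46.8% of the 3 beta transcripts in the isosmotic DMSO libraries and 67.4% and 67.9% at 6 h. The corresponding shares with SFN were 45.7% and 44.1% under isosmotic conditions and 66.4% and 66.6% at 6 h. The summed beta level itself went from 110.6 and 116.4 to 372.0 and 385.4 CPM per kb in DMSO cells. At 1 h the shares of Atp1b1 were 53.3% and 54.7% in DMSO and 51.6% and 51.8% in SFN-pretreated WT libraries. In WT cells Atp1b1 therefore had at most an even share with Atp1b3 under isosmotic conditions. It had a slightly larger share at 1 h, and a clearly larger one in all 4 libraries at 6 h.

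Atp1b2 (chr11:69599736-69605942, minus strand), whose product was first described as an adhesion molecule on glia, was a minor transcript throughout. It had 16 and 16 counts in isosmotic DMSO libraries, 88 and 48 counts at 1 h, and 126 and 63 counts at 6 h. All 4 stressed libraries were above both isosmotic ones, and the 1 h and 6 h libraries overlapped. The 6 h increase was 7.57-fold (log2 2.92, SE 0.51, edgeR adjusted p = 0.000297) in DMSO cells and 5.80-fold (log2 2.54, SE 0.484, adjusted p = 0.000587) in SFN cells, whose counts went from 22 and 32 to 140 and 89. Atp1b2 made up at most 0.447% of the beta transcripts at 1 h and at most 0.268% at 6 h.

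Fxyd4 (chr6:117933559-117937692, minus strand) encodes the collecting duct FXYD protein also called CHIF, which raises the affinity of the pump for sodium. In DMSO cells it had 18 and 6 counts under isosmotic conditions, 18 and 15 counts at 1 h, and 603 and 375 counts at 6 h. The step occurred between 1 h and 6 h, since the 1 h libraries overlapped the isosmotic ones. It amounted to 51.9-fold over isosmotic cells (log2 5.70, SE 0.648, edgeR adjusted p = 9.11e-06), and 950 called genes, itself included, rose at least as much. The size rested on the isosmotic libraries, with a log2 change of 6.73 without the first and 5.06 without the second. Against 1 h the change was 35.8-fold (log2 5.16, SE 0.621, adjusted p = 1.58e-05). With SFN, counts went from 7 and 6 to 685 and 508 (log2 6.93, SE 0.706, edgeR adjusted p = 3.21e-06), with a 95% interval of 5.42 to 8.45 that overlaps the 4.30 to 7.09 of DMSO cells. Gm25535, which lies within Fxyd4 on its strand, had at most 7 counts in any library.

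Fxyd2 (chr9:45399669-45410278, plus strand) encodes the gamma subunit of the pump, which in the kidney is found in several nephron segments. It had 45 and 54 counts in DMSO libraries at 6 h and 48 and 22 counts in SFN libraries at 6 h. The 8 other WT libraries were at 0, and 1 of the 4 Nrf2-/- libraries had 2 counts. Set against a floor of 3 counts per library, the level at 6 h was at least 21.6-fold higher than in isosmotic DMSO cells and at least 15.4-fold higher than in isosmotic SFN cells, where the bound was 10.1-fold without the first SFN library at 6 h. Fxyd2 was called by edgeR in both comparisons (adjusted p = 0.000766 and 0.0011), but not by DESeq2 (adjusted p = 0.265 and 0.286). It passed the expression filter only through the 6 h libraries and so had to differ there. Its level at 6 h, 1.49 ± 0.257 CPM in DMSO cells, stayed below the 14.5 ± 4.17 CPM of Fxyd4, and its neighbour Fxyd6, 3510 bp upstream on the same strand, had at most 1 count.

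Fxyd5 (chr7:31032722-31042481, minus strand) encodes dysadherin, a FXYD protein of epithelia that has been linked to weaker cell adhesion. It showed no increase at 6 h. DMSO libraries had 14.4 and 19.4 CPM under isosmotic conditions and 13.8 and 12.9 CPM at 6 h (log2 -0.34, SE 0.183, edgeR adjusted p = 0.148, or 0.0369 without the first Nrf2-/- library at 1 h). SFN libraries had 21.1 and 19.0 CPM under isosmotic conditions and 14.2 and 13.6 CPM at 6 h, a decrease that passed the test (log2 -0.52, SE 0.182, edgeR adjusted p = 0.0284). This call is fragile, since it was lost with DESeq2 (adjusted p = 0.0504) and when any 1 of the 4 libraries compared was left out (0.0532 to 0.131). Without Fxyd2, 5 of 6 genes were called at 6 h in SFN cells, 4 of them higher and 1 lower, against a background of 47.6% of genes in either direction, 24.7% higher and 22.9% lower.

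Consequently, the FXYD transcripts changed in make-up. Per unit of length, Fxyd5 made up 94.0% and 98.6% of the 4 FXYD transcripts in isosmotic DMSO libraries and 26.3% and 32.6% at 6 h. Fxyd4 took 6.00% and 1.45% of the isosmotic pool and 71.1% and 62.8% at 6 h, and Fxyd2 took 2.59% and 4.42%. In SFN cells at 6 h the share of Fxyd4 was 73.3% and 70.3%. The summed FXYD level went from 3.65 and 4.69 to 12.6 and 9.42 CPM per kb in DMSO cells, while that of Fxyd5 was 4.03 ± 0.840 and 3.18 ± 0.160 CPM per kb.

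**Figure D2:**
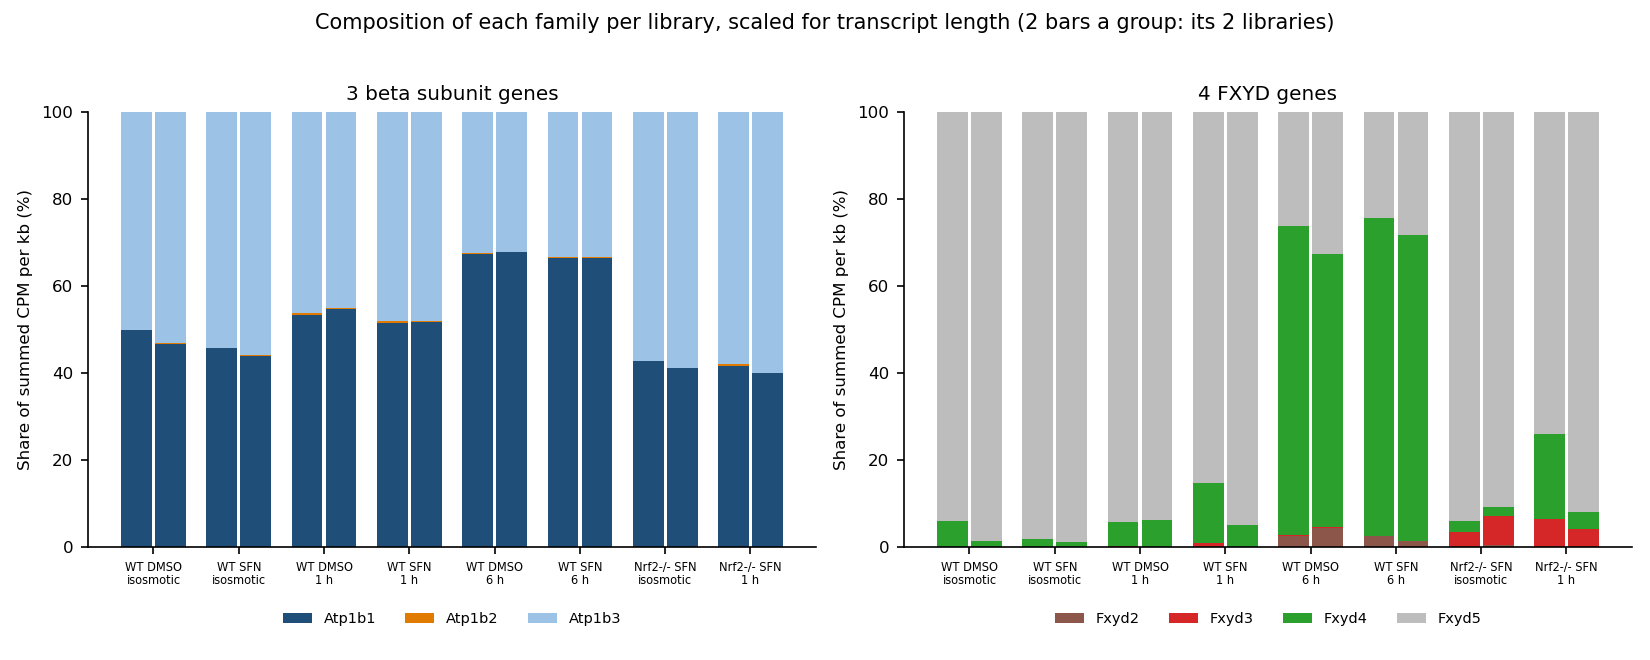
Share of each gene (y axis, percent of summed CPM per kb) among the 3 beta subunit transcripts (left) and the 4 FXYD transcripts (right), for the 2 libraries of each group (x axis, paired bars). Atp1b1 rose from 46.8% and 49.9% to 67.4% and 67.9% of the beta transcripts at 6 h in DMSO cells, and Fxyd4 replaced Fxyd5 as the largest FXYD share in all 4 libraries at 6 h.

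The early phase of the response was examined at 1 h of stress. In DMSO cells Fxyd2 had 0 counts in both groups compared, and Fxyd3 had 1 count in 1 library, so neither could be called. Only 1 of 7 genes was called, with 11.2% of all genes called in either direction and 7.1% higher. This was Atp1b2, which rose 4.43-fold (log2 2.15, SE 0.511, edgeR adjusted p = 0.0142). The call was lost without the first 1 h library (0.126) and without either isosmotic library (0.0776 and 0.115), while the log2 change stayed between 1.79 and 2.20. Atp1b3 was at 120.5 and 120.6 CPM against 132.1 and 147.8 CPM in isosmotic cells, a log2 difference of -0.22 (SE 0.091, edgeR adjusted p = 0.164) that passed the test when only the 12 WT libraries were fitted (adjusted p = 0.0358). Atp1b1 differed by 0.12 on the log2 scale (SE 0.087, edgeR adjusted p = 0.444), so most of its change at 6 h arose after the first hour.

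In SFN-pretreated WT cells, Fxyd2 had 0 counts in both groups compared and could not be called. At 1 h 1 of 7 genes was called, against 9.52% of all genes in either direction and 5.94% higher. This was Atp1b1, which went from 137.3 and 140.8 CPM to 181.9 and 187.4 CPM, a 1.33-fold increase (log2 0.41, SE 0.088, edgeR adjusted p = 0.0084). The call was lost when any 1 of the 4 libraries compared was left out, with adjusted p of 0.061 to 0.0928 and log2 changes of 0.39 to 0.43. The stressed level differed from that of DMSO cells at 1 h by less than the spread (184.7 ± 3.90 against 184.0 ± 6.98 CPM), and the isosmotic level with SFN was lower (139.0 ± 2.43 against 168.9 ± 1.61 CPM). The difference between the SFN and DMSO responses at 1 h, tested as an interaction, was 0.29 on the log2 scale (SE 0.124, edgeR adjusted p = 0.611). Atp1b2 (log2 1.40, SE 0.486, edgeR adjusted p = 0.0914) and Fxyd4 (log2 2.27, SE 0.821, adjusted p = 0.108) did not pass here, but both passed when only the 12 WT libraries were fitted (0.0187 and 0.0114).

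In Nrf2-/- cells with SFN, 1 of 6 genes was called at 1 h, against 7.17% of all genes and 4.36% higher. The count leaves out Fxyd3, which was not called and passed the expression filter only through the Nrf2-/- libraries. Fxyd2 had at most 2 counts in these libraries and was too low to be called. Atp1b2 went from 0 and 3 counts to 52 and 26 counts. The ratio of the summed, library-scaled counts was 26.9, with a 95% exact interval of 8.87 to 133 that covers counting error only (edgeR adjusted p = 0.00178, or 0.104 when only these 4 libraries were fitted). Without the isosmotic library at 0 counts the log2 change was 3.73 (edgeR adjusted p = 0.0241). Fxyd4 had 4 and 4 counts under isosmotic conditions and 49 and 6 counts at 1 h, so that its change rested on 1 library (log2 2.79, SE 0.903, edgeR adjusted p = 0.0847). Atp1b1, by contrast, was 123.3 and 125.3 CPM before and 123.4 and 110.1 CPM after 1 h of stress (log2 -0.09, SE 0.088, edgeR adjusted p = 0.636). The interaction of genotype and 1 h stress for Atp1b1 was -0.50 (SE 0.124, unadjusted p = 0.00118 across 16 libraries in edgeR, adjusted p = 0.199), and it was called by DESeq2 (adjusted p = 7.97e-05) and by edgeR without either Nrf2-/- library at 1 h (0.000686 and 0.016). In the latter fits the lone library left was assumed to vary like the other groups, which had less spread. For Atp1b2 the same interaction was 3.25, of opposite sign (SE 0.957, edgeR unadjusted p = 0.00423, adjusted p = 0.344). It was called by edgeR with no filter (adjusted p = 0.043). Of all genes, 0.123% were called for this interaction by edgeR in the main fit, and none of the 7 was.

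Whether SFN itself altered the pump subunits was tested at each condition in WT cells. None of the 7 genes was called by edgeR under isosmotic conditions, at 1 h or at 6 h, where 2.84%, 0.0923% and 0.041% of all genes were called. Fxyd2 had 0 counts in the WT libraries under isosmotic conditions and at 1 h, and Fxyd3 in the isosmotic ones. They could not be called there. At an unadjusted p below 0.05, edgeR found 1 gene under isosmotic conditions, 0 at 1 h and 0 at 6 h, and DESeq2 with adjustment likewise called 1, 0 and 0. The gene under isosmotic conditions was Atp1b1, which was lower with SFN in both libraries (137.3 and 140.8 against 170.0 and 167.7 CPM). Its log2 difference was -0.28 (SE 0.088, 95% interval -0.47 to -0.09, edgeR adjusted p = 0.117), and it passed with DESeq2 (adjusted p = 0.00185) and when only WT libraries were fitted (0.00433). At 1 h, Atp1b3 passed when only the 4 libraries compared were fitted (log2 0.14, edgeR adjusted p = 0.035). At 6 h the Atp1b1 difference was -0.04, with a 95% interval of -0.22 to 0.15 on the log2 scale, and that of Atp1b3 was 0.04, with an interval of -0.16 to 0.23. For the low genes the intervals were wider, reaching from -0.70 to 1.31 for Fxyd4 at 6 h, and they include changes of 2-fold in size. No interaction of SFN with 1 h or 6 h stress was called for any of the 7 genes, where 0.559% and 0.759% of all genes were. For Fxyd2 and Fxyd3, at 0 counts in isosmotic WT cells, these interactions could not be estimated.

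**Figure D3:**
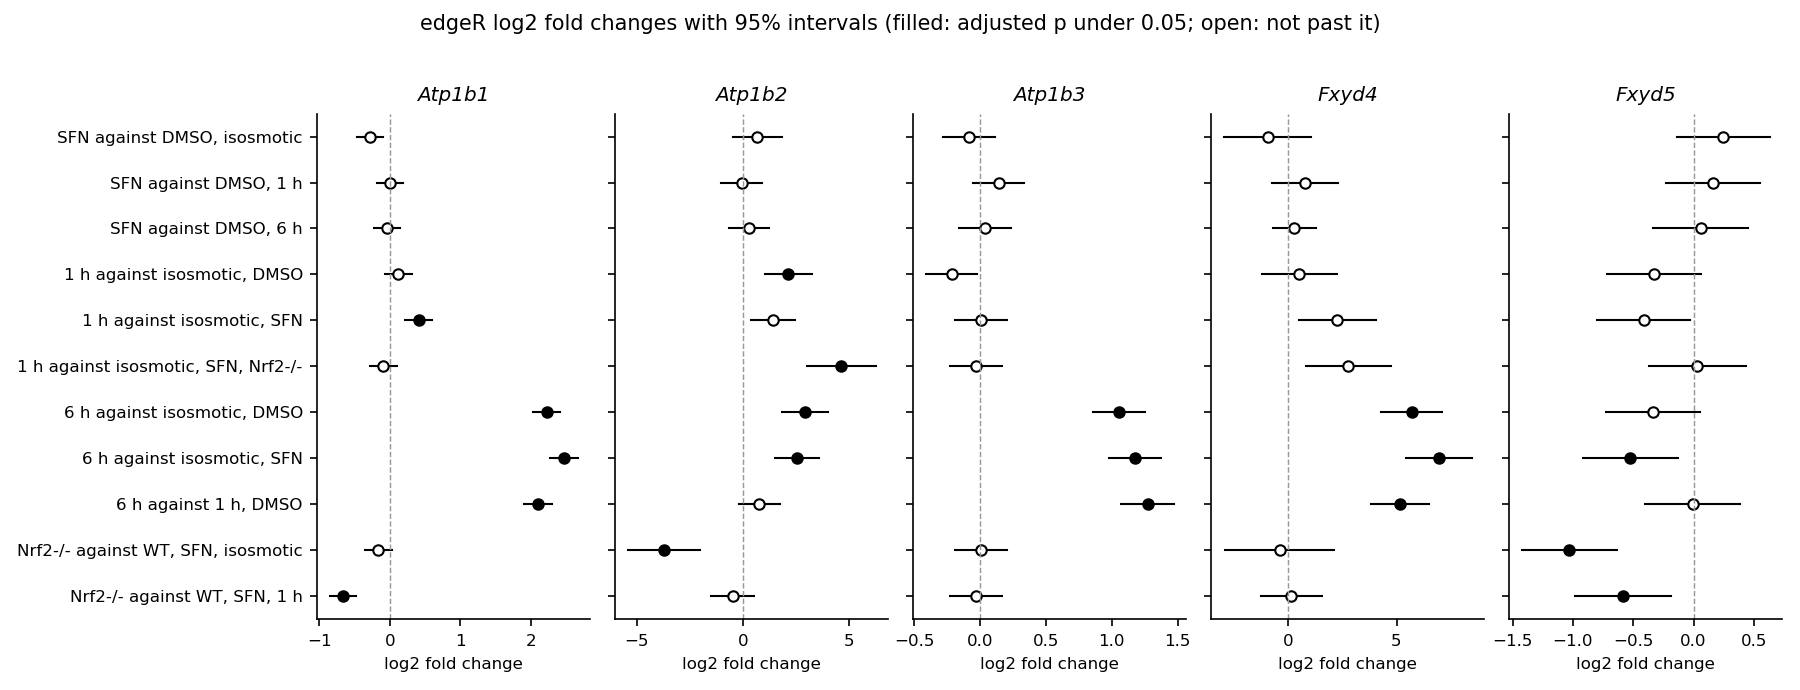
Log2 fold changes (x axes, scaled per gene) of 5 genes in 11 comparisons (rows), with 95% intervals from edgeR, where filled points passed an adjusted p of 0.05. Fxyd2 and Fxyd3 are left out because their low groups were at 0 counts. The 6 h comparisons stand apart for Atp1b1, Atp1b3 and Fxyd4. The SFN comparisons lie near 0 for Atp1b3 and, at 1 h and 6 h, for Atp1b1. The isosmotic SFN interval of Atp1b1, -0.47 to -0.09, lies below 0.

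The Nrf2-/- line was compared with WT cells under SFN. Under isosmotic conditions 2 of 6 genes were called, both lower, and 34.1% of all genes were called (15.7% higher, 18.4% lower). Fxyd3 was called higher and is not counted, since it passed the expression filter only through the Nrf2-/- libraries. Fxyd2, with at most 2 counts in any library of this comparison and of that at 1 h, was too low to be called. The lines also differed in collecting duct markers, of which 4 of the 18 tested were higher and 8 lower in Nrf2-/- cells. Cdh16, a kidney cadherin, stood at 20.5 ± 0.617 CPM against 200.4 ± 1.61 CPM in WT cells, Cdh1, the epithelial cadherin, at 438.0 ± 0.409 against 142.7 ± 6.32 CPM, and Ehf, an epithelial transcription factor, had 0 counts against 288 and 549. The part of these differences in the pump results was not tested. Fxyd5 was lower, with 8.68 and 10.9 CPM in Nrf2-/- libraries against 21.1 and 19.0 CPM in WT libraries (log2 -1.03, SE 0.185, edgeR adjusted p = 0.00053). Atp1b2 was lower, with 3 counts in both Nrf2-/- libraries together against 54 in WT (WT to Nrf2-/- ratio 14.3, 95% exact counting interval 4.63 to 71.4, edgeR adjusted p = 0.00195). Without the Nrf2-/- library at 0 counts its log2 difference was -2.83 (edgeR adjusted p = 0.0248). Atp1b1 (124.3 ± 1.45 against 139.0 ± 2.43 CPM, adjusted p = 0.176 in edgeR) and Atp1b3 (132.9 ± 7.80 against 132.2 ± 8.50 CPM, adjusted p = 0.996) did not pass.

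At 1 h of stress, again without Fxyd3, 2 of 6 genes were called between the lines, both lower in Nrf2-/- cells, where 31.5% of all genes were called and 16.2% were lower. Atp1b1 measured 123.4 and 110.1 CPM against 181.9 and 187.4 CPM in WT cells, a log2 difference of -0.66 (SE 0.088, edgeR adjusted p = 4.14e-05, or 0.0641 when only these 4 libraries were fitted). Fxyd5 measured 11.2 and 8.80 CPM against 13.2 and 16.8 CPM (log2 -0.58, SE 0.185, edgeR adjusted p = 0.0261). The Fxyd5 call was lost in the fit of these 4 libraries (0.192), without the second Nrf2-/- library (0.102) and without the second WT library (0.242). Fxyd4 did not pass (log2 0.15, SE 0.652, edgeR adjusted p = 0.895) and its direction turned without the first Nrf2-/- library, to -1.99 with an adjusted p of 0.0206. Atp1b3 stood at 130.2 ± 3.34 CPM in Nrf2-/- and 132.9 ± 2.08 CPM in WT cells at 1 h, with a 95% interval of the log2 difference of -0.22 to 0.17.

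Fxyd3 (chr7:31068172-31076704, minus strand), a FXYD protein found in epithelia such as colon and stomach and in several carcinomas, was measured almost only in the Nrf2-/- line. It had 13 and 35 counts in isosmotic Nrf2-/- libraries and 40 and 16 counts at 1 h. The 12 WT libraries had 0 to 7 counts, and 8 of them had none. Fxyd3 passed the expression filter only through the Nrf2-/- libraries and so had to differ there, and its p-values are no separate support. In isosmotic cells it was at least 9.63-fold higher than in WT cells, against a floor of 3 counts per library (edgeR adjusted p = 0.00741). That bound was 5.44-fold from the first Nrf2-/- library alone and 13.8-fold from the second. At 1 h the log2 difference was 3.10 (SE 1.19, edgeR adjusted p = 0.0706). Lgi4, which overlaps Fxyd3 on the opposite strand, had at most 4 counts in any library.

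The wider setting of these changes was described with lists of related genes. Of 10 genes for osmolyte handling and its control by tonicity, 9 were tested. At 6 h in DMSO cells 8 were higher and 1 lower, where 45.9% of all genes were called in either direction and 23.9% higher. The median log2 change was 2.60, against 0.05 over all genes. Among them, Akr1b3, the aldose reductase that makes sorbitol, rose 15.6-fold, and Slc5a3, a sodium-coupled inositol carrier, rose 19.2-fold. Slc6a12, the sodium-coupled betaine carrier, went from 0 and 0 counts to 877 and 896 counts. Outside 6 h it had at most 4 counts in any library. It therefore passed the expression filter only through the 6 h libraries and had to differ there, and the 8 include it. With SFN, 8 of the 9, again with Slc6a12, were higher and 1 lower, where 47.6% of all genes were called and 24.7% were higher. The median log2 change was 2.52, against 0.09 over all genes. The lower gene in both comparisons was Gdpd5, which in DMSO cells went from 11.3 ± 0.456 to 3.65 ± 0.0794 CPM at 6 h. The fitted folds of Atp1b1 and Fxyd4, 4.67 and 51.9, lay on either side of those of Akr1b3 and Slc5a3.

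Of 12 genes for sodium entry, 8 were tested, and at 6 h in DMSO cells 3 were higher and 1 lower (median log2 change 0.36, against 0.05 over all genes). The largest was the sodium-proton exchanger Slc9a2 (log2 1.92, SE 0.516, edgeR adjusted p = 0.00777), at only 2.33 ± 0.149 CPM. The bicarbonate cotransporter Slc4a4 (log2 0.86) and the phosphate carrier Slc20a1 (log2 0.55) were also higher, and Slc20a2 was lower (log2 -0.60). Scnn1a, the alpha subunit of the epithelial sodium channel, did not pass (log2 -0.24, SE 0.36, edgeR adjusted p = 0.628). Of 17 regulators and anchors of the pump, all were tested, and 6 were higher and 2 lower (median 0.23). In both of these lists the share called was close to the 45.9% of all genes. Sgk1, a kinase that promotes sodium transport in the collecting duct, rose 18.1-fold, from 37.6 ± 0.574 to 681.5 ± 0.605 CPM. Kcnj16, a basolateral potassium channel subunit through which potassium brought in by the pump can leave, rose 17.4-fold, from 4.17 ± 0.0260 to 72.8 ± 4.01 CPM. Of the remaining pump and proton pump genes, 1 of 7 was tested, Atp4b, the beta subunit of the gastric proton pump, which had 0 and 0 counts in isosmotic DMSO cells and 43 and 30 counts at 1 h.

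**Figure D4:**
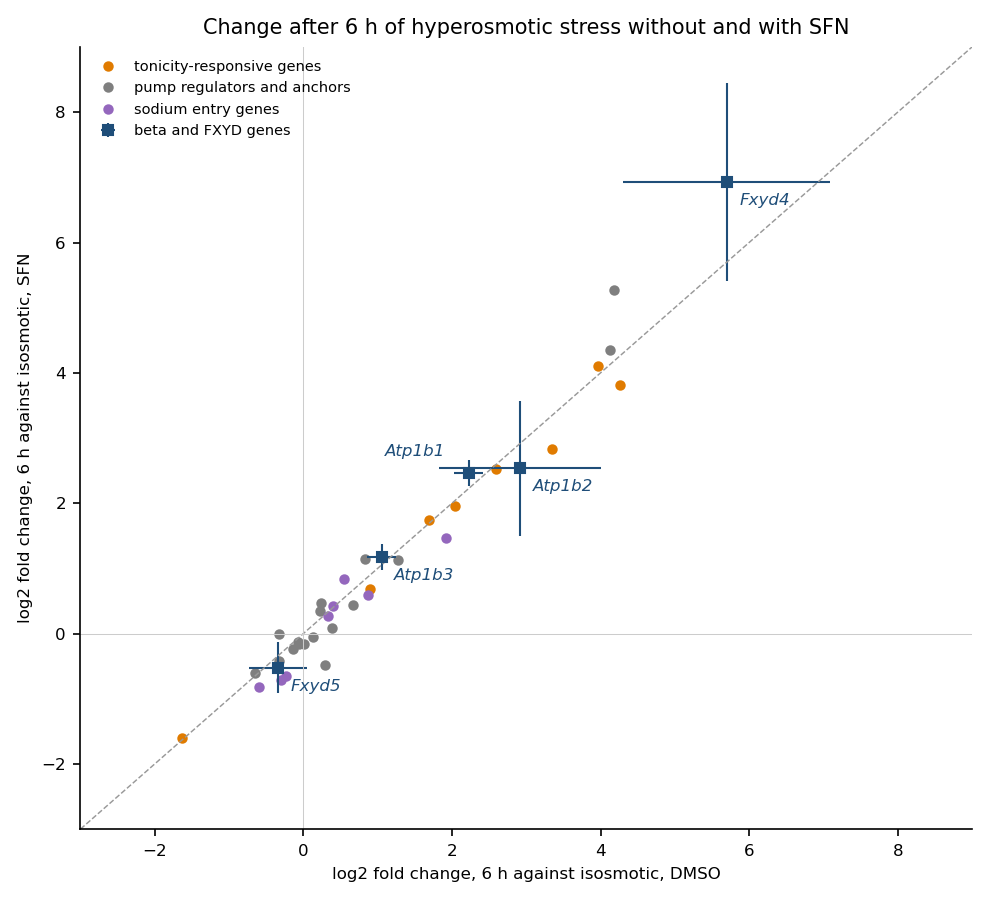
Log2 fold change at 6 h of stress against isosmotic conditions in DMSO cells (x axis) and SFN cells (y axis) for 5 of the pump genes (blue squares, bars are 95% intervals) and for genes of 3 related lists (points), with the dashed line marking equal change. Fxyd2 and Slc6a12 are left out because they had 0 counts in isosmotic cells. Atp1b1 lies just above the line and the bars of the other 4 cross it, and no interaction of SFN with 6 h stress was called for them.

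Across the 16 libraries, the genes with the most similar profile to each subunit were identified by Pearson correlation of log2 CPM among 12290 genes with a mean of at least 50 counts. These correlations are descriptive, because all points share the same 8 groups and the 6 h libraries dominate the range. Atp1b1 was closest to Fam107b (r = 0.997), Akr1b3 (0.994) and Pax8 (0.994), the last being a transcription factor of kidney epithelium. Atp1b3 was closest to Oser1 (0.993), 2310030G06Rik (0.990) and Btg1 (0.989). Fxyd4 was closest to Pkm (0.972), Nme2 (0.971) and Pip4k2c (0.970), and Atp1b2 to Acot13 (0.967), Mmp25 (0.943) and Nlrc3 (0.942). Fxyd5, which did not share the 6 h increase, was closest to Acd (0.951), Nup85 (0.910) and H2ax (0.909). Between members, the profiles of Atp1b1 and Atp1b3 correlated at 0.963 and those of Atp1b1 and Fxyd5 at 0.108.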

How the data were processed

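The authors aligned RNA-seq reads to mm10 and counted them per gene with featureCounts. The submitters' processing notes name Bowtie2 and SAMtools, whereas the study's methods name Hisat2, and versions, annotation and strand setting are not given in the sources used here. The deposited values are raw counts per gene symbol, 1 file per library, and they were used as deposited. Between 58.0% and 68.5% of counts from 1 to 10 were even numbers in each library, a pattern that arises where both mates of a pair are counted, so low counts may hold fewer fragments than their number. Rows without a gene name (2 in one file and 3 in another) held 0 counts. The extraction text in the labels mentions primary cells, but every sample is labelled mIMCD3.

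Counts were tested with edgeR 4.0.16 in R 4.3.3: TMM scaling, filterByExpr with a minimum count of 10 (19509 genes), 1 coefficient for each of 8 groups over all 16 libraries, a robust quasi-likelihood F-test and Benjamini-Hochberg adjustment over all genes tested. The study's methods name no test for these counts. Standard errors were taken from the F statistic and 95% intervals from its degrees of freedom. CPM used TMM-scaled library sizes, and length scaling used the union of exons in GENCODE M21, with 96.1% of symbols matched. Log2 CPM for correlations used a prior count of 2. Exact intervals of count ratios and floors of 3 counts cover counting error only. They take each count as an independent read, so where both mates were counted the intervals are too narrow and the floors too low. With 2 libraries against 2, an exact permutation test of a single gene cannot go below a two-sided p of 0.333, so none is given. On data simulated for the 6 h comparison in DMSO cells, with 18264 genes tested, 46.3% of 2-fold and 71.6% of 4-fold changes were recovered. In the simulation 184 of the genes tested were changed, and 7 unchanged genes were called. The real comparison called 45.9% of all genes tested, so these rates need not hold there.

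All 7 members are named by rule. From each related list at most 4 genes called in a comparison were named, by the size of the change, and 3 genes by likeness for each member averaging at least 50 counts. The exceptions, Scnn1a, Gdpd5 and Slc6a12's counts, were chosen after their values were seen. The members and lists were chosen with earlier results of these data known. Results for the catalytic subunits of the pump are not reported here. Alternatives were DESeq2 1.42.0, other size factors, other filters, fewer libraries in the fit, a replicate block, other gene lengths and leaving out each library, and the fit without the 2 Nrf2-/- libraries at 1 h was chosen after seeing the data.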

Additional observations from a re-analysis of the deposited data

How the results depend on the processing

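Counts of genes called here cover all 7 genes. They were 5 at 6 h in DMSO cells (4 without Fxyd2), 4 against 1 h (3), 6 at 6 h in SFN cells (5) and 3 for Nrf2 loss under isosmotic conditions (2 without Fxyd3). Of all genes, 45.9%, 42.4%, 47.6% and 34.1% were called. The calls at 6 h held under every setting tried except the stricter filter of at least 10 counts in every library, which only 3 of the 7 genes passed, and except Fxyd2 with DESeq2 and Fxyd5 in SFN cells. Under that filter 2 genes were called in each of these 6 h comparisons, 1 for Nrf2 loss under isosmotic conditions, and 0 at 1 h in DMSO and in Nrf2-/- cells. Calls at 1 h and for SFN moved more. With DESeq2, 1 gene was called for SFN under isosmotic conditions, 2 at 1 h in SFN cells, 2 at 1 h in Nrf2-/- cells and 1 for the interaction of genotype with 1 h stress. With no filter the last 3 counts were 3, 2 and 1. The interaction call was Atp1b1 with DESeq2 and Atp1b2 with no filter. Fitting only the libraries compared gave 1 gene for SFN at 1 h, 2 at 1 h in SFN cells, 0 for Nrf2 loss at 1 h and 0 at 1 h in Nrf2-/- cells. Fitting only the 12 WT libraries gave 1 gene for SFN under isosmotic conditions, 2 at 1 h in DMSO cells and 4 at 1 h in SFN cells, and the fit without both Nrf2-/- libraries at 1 h, chosen after seeing the data, gave 1, 2 and 3. The causes were not tested.

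Leaving out 1 library at a time, with the lone library left in its group assumed to vary like the other groups, the number of genes called ranged from 0 to 1 for SFN under isosmotic conditions, from 0 to 2 at 1 h in DMSO cells, from 0 to 4 at 1 h in SFN cells, from 1 to 2 at 1 h in Nrf2-/- cells, from 1 to 3 for Nrf2 loss at 1 h and from 0 to 2 for the interaction of genotype with 1 h stress. The higher counts for SFN and for 1 h stress in WT cells came without the first or the second Nrf2-/- library at 1 h, the pair with the widest spread. The log2 difference between the lines under isosmotic conditions for Atp1b3 ranged from -0.062 to 0.073 and was -0.006 with no filter, and at 1 h it was 0.013 with DESeq2 and with RLE size factors. That of Fxyd4 at 1 h ranged from -1.993 to 0.975. Fxyd3 at 1 h passed with no filter (edgeR adjusted p = 0.0265), and its log2 difference ranged from 2.104 to 7.942 without 1 library at a time. Of 271 values of 39 reported effects under the other settings, 241 kept their direction and their side of the threshold.

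Basal levels in WT DMSO cells scaled by the longest transcript were 65.5 CPM per kb for Atp1b1, 70.2 for Atp1b3, 5.63 for Fxyd5 and 0.098 for Atp1b2, and Atp1b1 was at 52.9 with RLE size factors.

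Libraries with the same replicate number in different groups did not deviate together: over 28 pairs of groups the correlations of their deviations ran from -0.079 to 0.123 (median -0.008), with 1 over 0.1. With the replicate number as a block, Fxyd4 was also called at 1 h in SFN cells (adjusted p = 0.0438) and in Nrf2-/- cells (0.0357). This gave 2 genes in each, and no other count for the 7 genes changed.

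Over all genes, the number called stayed within 1.5 times at 6 h (6232 to 11322 over the settings and the 3 comparisons) and for Nrf2 loss under isosmotic conditions (5609 to 8909). It ran from 440 to 2875 for SFN under isosmotic conditions, 13 to 809 at 1 h and 2 to 106 at 6 h, from 654 to 4334 at 1 h in DMSO cells, 535 to 3466 in SFN cells and 7 to 2130 in Nrf2-/- cells, from 1651 to 6480 for Nrf2 loss at 1 h, and from 83 to 585, 129 to 803 and 0 to 160 for the interactions of SFN with 1 h, of SFN with 6 h and of genotype with 1 h stress. Without 1 of the 2 Nrf2-/- libraries at 1 h, the numbers reached 2742 for SFN under isosmotic conditions, 4275 at 1 h in DMSO cells, 3323 in SFN cells and 5079 in Nrf2-/- cells, and 2072 for the interaction of genotype with 1 h stress. Without a library of the groups compared they fell to 171, 948, 709, 538 and 8. Depth limits Atp1b2, Fxyd2, Fxyd3 and Fxyd4, whose low groups held few counts.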
